A study of Homo sapiens with 60 samples.

Results

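The response of HepG2 cells to a 5-fold step in the dose of 1 herbal extract is described here: the 70% ethanol extract of Aconiti Lateralis Radix Preparata at its medium dose, 100 µg/mL, against its low dose, 20 µg/mL. The members are the 6 libraries whose labels give this extract and these doses, 3 at each dose, out of 60 libraries in the series. HepG2 is an established line derived from a human hepatocellular carcinoma that keeps many liver genes active. It stands in for liver cells only in part. The series exposed HepG2 cells for 24 h to herbal extracts at 3 doses or to vehicle and sequenced their RNA. Doses were 500, 100 and 20 µg/mL, except for extracts toxic below the top dose, which were scaled down by the same 5-fold steps. Alongside the 6 libraries, 3 libraries of the same extract at its high dose of 500 µg/mL and 3 of vehicle (0.1% DMSO in the sample labels) are given for reference. The ethanol extracts of Cimicifugae Rhizoma and Citri Unshius Pericarpium at the same 100 and 20 µg/mL, and of Bupleuri Radix at 56 and 11.2 µg/mL, are used for comparison, with 3 libraries per dose. The titles place all of these libraries in batch D, and also number them in sets whose meaning the labels do not give: Aconiti and Bupleuri share a set, Cimicifugae and Citri share another, and vehicle has its own, so treatment and set cannot be told apart between sets. The labels do not say whether the 3 libraries of a dose came from separate cultures, so p-values measure spread between libraries only. That spread was estimated jointly over 57 libraries in 22 groups, those of other extracts included.

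Aconiti Lateralis Radix Preparata is the processed lateral root of aconite. Raw aconite root is known for diterpenoid alkaloids such as aconitine, which hold voltage-gated sodium channels open, and processing breaks much of them down. Growth factor signals reach the nucleus through the kinase ERK, which switches on immediate early genes such as FOS and EGR1 through serum response factor and related factors. Their protein products then act on later genes and, through phosphatases and Sprouty proteins, dampen ERK itself. Metallothioneins are small zinc-binding proteins, and sterol genes respond to the transcription factor SREBP2 when cell cholesterol is low.

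The 6 libraries held between 24250296 and 29362503 counts, within the 18015555 to 29549531 of the whole table. No pair of libraries of the same dose was identical. Summed hepatocyte markers lay between 44824 and 46668 CPM (counts per 1000000) at the low dose and between 43628 and 43731 at the medium dose. The marker sums were not scaled for library composition, whereas the CPM of single genes were. PTPRC and CD3E of leukocytes, DCN of stromal cells and KDR of endothelial cells were at 0 in all 6 libraries. LYZ made up most of the leukocyte list, which HepG2 cells expressed here at both doses and which summed to 1361 to 1423 CPM at the low dose and 1579.9 to 1609 at the medium dose. Mitochondrial rRNA took 2.58 to 2.73% of counts at the low dose and 2.46 to 2.54% at the medium dose, a difference of -0.149 percentage points. The exact two-sided permutation test gave p = 0.10 for it, the smallest value that 3 against 3 libraries allow. The medium minus low difference in mitochondrial mRNA was 0.333 percentage points (exact permutation p = 0.20) and in ribosomal protein mRNA -0.0247 (p = 0.80).

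The promoters of 3 immediate early genes that rose and of CYP1A1, the marker gene of the aryl hydrocarbon receptor (AhR), are shown because these genes return below. Each is the 250 bases before the RefSeq start on GRCh38.p14, written 5′ to 3′ on the strand of the gene. In EGR1 (chr5:138465229-138465478, plus strand) capitals mark CArG boxes, the sequence that serum response factor binds. In FOS (chr14:75278578-75278827, plus strand) and FOSB (chr19:45467746-45467995, plus strand) they mark TGACG, the core of the cyclic AMP response element. In CYP1A1 (chr15:74725529-74725778, minus strand) they mark GCGTG, the core of the AhR element.
EGR1: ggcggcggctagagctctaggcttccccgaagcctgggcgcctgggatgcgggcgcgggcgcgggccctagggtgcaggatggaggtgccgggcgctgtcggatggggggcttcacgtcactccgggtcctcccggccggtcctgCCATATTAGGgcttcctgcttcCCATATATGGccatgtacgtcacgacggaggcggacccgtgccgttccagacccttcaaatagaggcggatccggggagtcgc
FOS: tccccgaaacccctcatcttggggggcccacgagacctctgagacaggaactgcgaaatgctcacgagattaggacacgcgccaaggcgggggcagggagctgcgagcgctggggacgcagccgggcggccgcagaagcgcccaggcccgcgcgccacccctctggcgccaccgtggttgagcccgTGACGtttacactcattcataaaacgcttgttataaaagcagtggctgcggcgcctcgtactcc
FOSB: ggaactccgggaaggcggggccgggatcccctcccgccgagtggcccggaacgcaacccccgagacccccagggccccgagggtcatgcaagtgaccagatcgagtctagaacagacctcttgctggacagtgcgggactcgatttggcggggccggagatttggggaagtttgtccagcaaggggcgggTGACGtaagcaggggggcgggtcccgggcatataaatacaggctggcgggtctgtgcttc
CYP1A1: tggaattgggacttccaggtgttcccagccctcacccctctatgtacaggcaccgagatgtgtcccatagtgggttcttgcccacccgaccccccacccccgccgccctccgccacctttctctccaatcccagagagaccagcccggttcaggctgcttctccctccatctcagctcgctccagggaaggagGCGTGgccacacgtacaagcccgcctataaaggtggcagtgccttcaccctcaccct
Both strands were searched, and a match is a description of letters only. The EGR1 window held 2 CArG boxes, and 1.16% of 35116 promoter windows of this length held at least 1. It also held 2 matches to TGACG, which are not in capitals. Among the matched promoters of named genes, those of CYP1A1, AQP3 and SULT2A1, of which the last fell, held 1 CArG box each. TGACG was present in 21.2% of windows and GCGTG in 32.2%. No CArG box and no full TGACGTCA was found in the FOS or FOSB window. Sites further upstream than these 250 bases were not searched, so their absence from the promoter is not shown. The table of promoters matched 85 of the 111 genes chosen for naming.

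Raising the dose from 20 to 100 µg/mL changed 1752 of 16675 genes tested (edgeR quasi-likelihood test, Benjamini-Hochberg adjusted p under 0.05, called below), or 10.5%. Of these, 811 were higher (4.86% of genes tested) and 941 lower (5.64%), and 91 changed at least 2-fold, 46 up and 45 down. With offsets for GC content and transcript length the balance turned, to 1490 higher and 1215 lower (55.1% of calls higher, against 46.3%). Induced genes included immediate early transcription factors, feedback inhibitors of ERK, ligands of the epidermal growth factor receptor and the collagen-binding integrin subunit ITGA2. Reduced genes included metallothioneins, acyl-CoA and amino acid enzymes, sterol synthesis enzymes, glutathione transferases and albumin. Most changes were small: the median absolute log2 fold change over all genes was 0.11, and the median itself 0.00. In 1731 of the called genes the 3 medium libraries lay entirely above or below the 3 low libraries, and 21 overlapped. Over all genes tested 33.4% did not overlap. The count was 2721 without replicate 3 of the Bupleuri low dose, whose ribosomal protein share of 7.05% stood apart from 4.47 to 4.64% in its group, and 1143 without replicate 1 of the Aconiti medium dose.

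**Figure D1:**
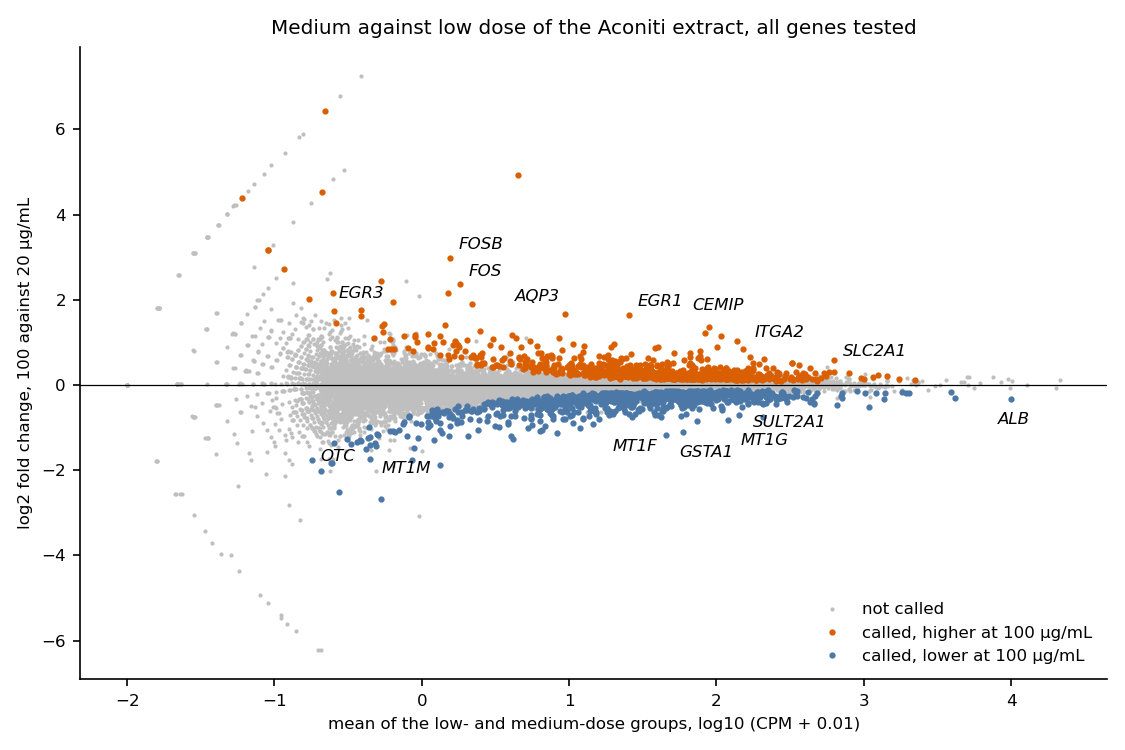
Log2 fold change of each of the 16675 genes tested, 100 against 20 µg/mL (vertical axis), against the mean level of the 2 dose groups as log10 of CPM plus 0.01 (horizontal axis, log scale). Orange points are the 811 called genes that were higher at 100 µg/mL and blue points the 941 that were lower, and the labelled immediate early genes FOSB, FOS and EGR1 lie at the top at low to middling levels.

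Most immediate early genes rose. Of 12 measured, 10 were higher and 0 lower, with a median log2 fold change of 0.79 beside 0.00 over all genes. EGR1, a zinc finger transcription factor (chromosome 5, 138465490 to 138469315), measured 12.5, 12.8 and 12.0 CPM at the low dose and 43.6, 38.4 and 34.7 at the medium dose. The change was 3.14-fold, a log2 fold change of 1.65 ± 0.08 (SE, n = 3 per dose, edgeR adjusted p = 1.3e-19). FOS, which pairs with JUN in the AP-1 transcription factor, went from 0.571, 0.571 and 0.603 CPM to 3.55, 2.90 and 2.63. Its groups did not overlap, and the log2 fold change was 2.37 ± 0.19 (adjusted p = 9.3e-13). FOSB, its close relative, measured 0.302, 0.449 and 0.284 CPM at the low dose and 2.71, 2.67 and 2.82 at the medium dose. Again no low library reached a medium library, with a log2 fold change of 2.99 ± 0.26 (adjusted p = 8.6e-12). FOS and FOSB rested on few counts, 48 and 28 over the 3 low libraries and 244 and 220 over the 3 medium libraries. EGR3 rose by 1.95 on the log2 scale from about 0.254 CPM. Outside the naming rule and picked after their values were seen, IER3 rose from a mean of 70.9 to 132 CPM, JUNB from 9.02 to 14.5, and MYC from 165 to 188. EGR2 (1.53, adjusted p = 0.297) and ATF3 (0.21, adjusted p = 0.209) did not pass the test.

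Of 12 genes that ERK and AP-1 are known to induce, including the feedback inhibitors of ERK, 8 were higher and 0 lower (median 0.30). This list was drawn up after the top genes had been seen, so it is a description of them. SPRY4, a Sprouty inhibitor of ERK signalling, measured 57.4, 57.6 and 55.0 CPM at the low dose and 107, 95.8 and 93.3 at the medium dose. Every medium library was above every low library (log2 fold change 0.80 ± 0.08, adjusted p = 1.7e-10). DUSP5, a nuclear phosphatase of ERK, rose from 3.76, 3.18 and 3.69 CPM to 7.63, 7.41 and 6.75 (1.03 ± 0.14, adjusted p = 4.7e-07). FOSL1, another partner of JUN, went from 15.0, 12.6 and 13.6 to 28.7, 26.3 and 25.4 CPM (0.96 ± 0.07, adjusted p = 3.0e-13). Both genes roughly doubled. Ligands of the epidermal growth factor receptor moved with them: AREG rose by 0.83 ± 0.13, EREG by 1.00 ± 0.21 and HBEGF by 0.66 ± 0.16 on the log2 scale. Of the 7 measured ligands and receptors in that list, also drawn up afterwards, 3 were higher and ERBB2, at -0.23, was lower. The receptor EGFR itself had a value of 0.08 (adjusted p = 0.784). HBEGF lost its call without replicate 1 of the medium dose (adjusted p = 0.105).

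The 12 largest rises, by the rule for named genes, included AQP3, EGR1, CEMIP, IGFBP1, PHLDA2, IL11, PPP2R2C, ITGA2, DUSP5, FOSL1 and NR4A1, and lay between 0.96 and 1.67 on the log2 scale. AQP3, a water and glycerol channel, went from 4.97, 4.73 and 3.76 CPM to 16.2, 14.6 and 11.9 (1.67 ± 0.11, adjusted p = 1.5e-14). Lack of overlap between doses was part of the rule, so it is no result for these genes. CEMIP, which takes part in hyaluronan breakdown, rose from 52.5, 48.3 and 47.9 to 139, 131 and 115 CPM. ITGA2, through which cells hold collagen, rose from 95.5, 92.1 and 84.6 to 204, 187 and 169 CPM. IGFBP1, secreted by hepatocytes to hold insulin-like growth factors, rose from 54.6, 48.3 and 47.2 to 137, 110.4 and 104 CPM. The log2 fold changes of CEMIP, ITGA2 and IGFBP1 were 1.37, 1.04 and 1.23. IL11, a cytokine of the interleukin 6 family, rose 2.15-fold and NR4A1, an orphan nuclear receptor of the immediate early kind, by 0.96 on the log2 scale. Of the cytokine list, CXCL8 (1.07) and SOCS3 (1.44) were among 4 of 9 measured members that rose, with UBD (-0.54) among 3 that fell. SOCS3 rested on few counts, 24 over the 3 low libraries and 64 over the 3 medium libraries. Its 0.63 against vehicle at the medium dose did not pass (edgeR adjusted p = 0.120). The glucose transporter SLC2A1 rose from 504, 526 and 490.5 CPM to 785, 772 and 710.2 (0.58 ± 0.05, adjusted p = 9.6e-13), while only 3 of 17 measured glycolysis and hypoxia genes rose and ALDOC fell. HK2, the first enzyme of glycolysis, was another of the 3 (0.34).

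**Figure D2:**
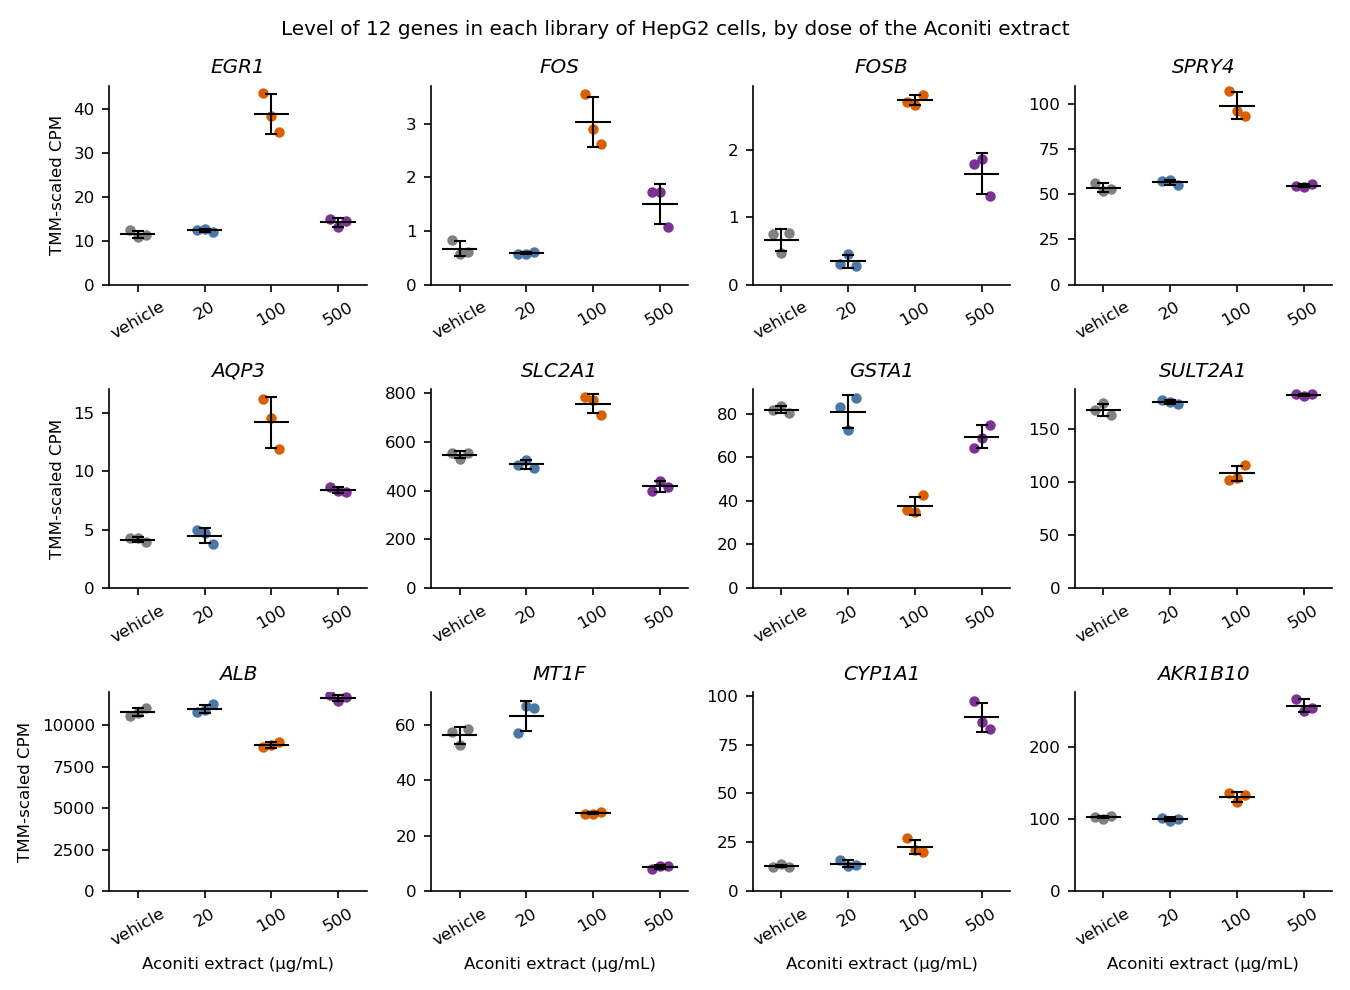
CPM of 12 genes in each library (points) with mean and SD (n = 3 libraries), for vehicle and for 20, 100 and 500 µg/mL of the Aconiti extract. EGR1, FOS, FOSB, SPRY4, AQP3 and SLC2A1 are highest at 100 µg/mL, GSTA1, SULT2A1 and ALB are lowest there, and MT1F, CYP1A1 and AKR1B10 move further at 500 µg/mL.

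The 12 largest falls by the rule were MAB21L4, ALDH8A1, MT1F, GSTA2, GSTA1, SLC22A7, LEAP2, ACSM2B, ACSM2A, TJP3, KNG1 and SLC30A10, between -1.27 and -0.91. Whether fewer cells express such a gene or each cell holds less of its RNA cannot be told apart in bulk RNA. GSTA1, an alpha class glutathione transferase, measured 82.9, 72.7 and 87.4 CPM at the low dose and 35.6, 34.8 and 42.5 at the medium dose, 2.15-fold lower (-1.11 ± 0.11, adjusted p = 7.8e-10). Its near-identical neighbour GSTA2 gave -1.13, but reads that fit both copies may have been split between them, and the same holds for ACSM2A and ACSM2B. SULT2A1, which sulfonates steroids and bile acids, measured 177, 175 and 173 CPM at the low dose and 102, 104 and 116 at the medium dose. The low libraries were all far above the medium ones (-0.70 ± 0.05, adjusted p = 2.9e-13). NR1H4, the bile acid receptor FXR, fell from 74.3, 74.8 and 81.0 to 43.2, 47.3 and 52.5 CPM (-0.69 ± 0.06, adjusted p = 1.3e-11). SLC22A7, an organic anion transporter of the liver, fell from 8.66, 8.65 and 8.66 to 3.15, 4.40 and 4.69 CPM. The groups of NR1H4 did not overlap, while for SLC22A7 this was part of the rule. ALB, the main secreted protein of the liver, fell from 10795, 10919 and 11285 to 8686, 8797 and 9014 CPM, a change of -0.32 ± 0.04 (adjusted p = 6.4e-07). APOC3 (-0.75) and APOH (-0.51), both apolipoproteins, were further members of the 7 of 16 secreted proteins that fell, with 0 higher and a median of -0.16. Of 11 hepatocyte transcription factors 4 fell and 0 rose (median -0.12): NR1H4, CEBPA (-0.45), FOXA1 (-0.20) and, outside the rule, HNF4A (-0.12). FOXA1 lost its call without replicate 2 of the low dose (adjusted p = 0.0741). CEBPA was 0.61 above vehicle at the low dose (adjusted p = 4.8e-07). Its 0.16 against vehicle at the medium dose did not pass (adjusted p = 0.129). NR1H4 and FOXA1 lay below vehicle at the medium dose, at -0.62 (adjusted p = 1.4e-10) and -0.19 (adjusted p = 0.00908). Conjugation enzymes split: 4 of 11 measured fell, UGT2B7, named after its value was seen, rose by 0.20, and the other 6 did not pass.

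Enzymes that activate medium-chain fatty acids or break down amino acids fell together, 13 of 18 measured lower and 0 higher, with a median of -0.54. This list was also assembled after the top falls had been seen. The figures label it mitochondrial, which does not hold for every member, AGXT among them. ACSM2B, a medium-chain acyl-CoA ligase, measured 15.7, 15.8 and 15.7 CPM at the low dose and 7.42, 7.71 and 8.32 at the medium dose (-1.01 ± 0.07, adjusted p = 1.7e-13). AGXT, which detoxifies glyoxylate, went from a mean of 20.2 to 11.5 CPM and GLUD1, glutamate dehydrogenase, from 762 to 548, both named after their values were seen. OTC of the urea cycle had a value of -1.50 ± 0.42 (adjusted p = 0.0125) at under 1 CPM, and lost its call without replicate 1 of the medium dose, 3 of the medium dose or 3 of the low dose (adjusted p between 0.0505 and 0.0966). The mRNAs that mitochondria themselves encode showed no called change in 13 genes, nor did 36 nuclear genes of complex I. The smallest p among them belonged to MT-ND1 (0.19, adjusted p = 0.302) and NDUFC2 (0.21, adjusted p = 0.240). NDUFC2 was called under 5 other settings (adjusted p between 1.4e-05 and 0.0154): only the Aconiti libraries, only the 6 libraries with or without a replicate block, no filter on low counts, or without replicate 3 of the Bupleuri low dose. MT-ND1 was called with only the Aconiti libraries (0.0114), with no filter (0.00661) and in the 6 libraries with the block (0.0441).

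Sterol and fatty acid synthesis genes fell by modest amounts. In the cholesterol list 16 of 22 measured genes were lower and 1 higher, with a median of -0.28. LSS, which closes the sterol ring, measured 292, 299 and 284 CPM at the low dose and 210.0, 220.0 and 213 at the medium dose (-0.44 ± 0.04, adjusted p = 6.9e-11). HMGCS1, which makes the precursor of mevalonate, fell from 514, 530.4 and 537 to 386, 379.7 and 411 CPM (-0.43 ± 0.05, adjusted p = 3.6e-09). The doses did not overlap for either enzyme, though each change was well under 2-fold. Of 10 measured fatty acid synthesis genes 6 fell and 0 rose (median -0.21). ACSS2, which makes acetyl-CoA from acetate, fell the most, from 129, 129.9 and 130.4 to 83.5, 87.4 and 89.4 CPM (-0.58 ± 0.04, adjusted p = 1.7e-13), followed by the desaturases FADS2 (-0.43) and FADS1 (-0.33).

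Metallothioneins fell in 6 of 8 members of their list, with 0 higher and a median of -0.74. MT1F (chromosome 16, 56657694 to 56660698) measured 57.1, 66.8 and 66.2 CPM at the low dose and 28.0, 28.0 and 28.6 at the medium dose. The log2 fold change was -1.17 ± 0.10 (adjusted p = 2.6e-12). MT1G fell from 146, 160.0 and 156 to 95.3, 75.1 and 90.7 CPM (-0.83 ± 0.10), and MT1M from a mean of 2.08 to 0.556 CPM (-1.88 ± 0.26, adjusted p = 4.5e-07). The MT1 genes are close copies on the same stretch of chromosome 16, so values of single members are uncertain where reads fit more than 1 copy. The zinc exporter SLC30A1 (-0.07, adjusted p = 0.337) and MT1A (-0.02, adjusted p = 0.978) did not pass, whereas SLC30A10, a manganese exporter, was among the largest falls at -0.91.

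Targets of NRF2, the factor that answers electrophile stress, moved in part: 6 of 15 measured rose and 1 fell, with a median of 0.16. GCLM, a subunit of the enzyme that limits glutathione synthesis, averaged 54.5 ± 1.28 CPM (SD, n = 3) at the low dose and 77.9 ± 4.89 at the medium dose (0.52 ± 0.05, adjusted p = 1.8e-10). SLC7A11, the cystine importer, went from 56.8, 58.6 and 60.4 to 94.7, 88.3 and 88.7 CPM (0.63 ± 0.08, adjusted p = 1.8e-07). AKR1B10, an aldo-keto reductase, went from 102, 97.2 and 101 to 136, 124 and 134 CPM (0.39 ± 0.06, adjusted p = 1.2e-06). All 3 genes were higher in every medium library than in any low library. The member that fell was AKR1C2 (-0.25), a close copy of other AKR1C genes and named after its value was seen. HMOX1, heme oxygenase and a usual member of the same response, was not called, with 60.0, 62.3 and 62.9 CPM at the low dose and 68.5, 60.2 and 61.0 at the medium dose, which overlap (0.04 ± 0.05, adjusted p = 0.790). SQSTM1, an autophagy receptor, rose by 0.52 ± 0.05 and was the largest of 4 rises among 16 lysosome and autophagy genes, with CTSL (0.19) and, outside the rule, CTSB (0.11) among the others. CTSL lost its call in 5 of 6 fits without a single Aconiti library (adjusted p between 0.0709 and 0.233).

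CYP1A1, the AhR target whose promoter is printed above, measured 16.0, 12.8 and 13.2 CPM at the low dose and 27.0, 21.3 and 20.0 at the medium dose. The groups did not overlap (0.70 ± 0.13, adjusted p = 1.6e-04). AHRR, the repressor of the receptor, was the other of 2 called among 8 AhR targets (0.84 ± 0.27, adjusted p = 0.0430). It lost its call under 10 of 15 other settings, among them each of 5 fits without a single Aconiti library (adjusted p between 0.0638 and 0.179). DDIT3, a marker of endoplasmic reticulum stress, overlapped between doses at 14.8, 13.1 and 14.6 against 15.1, 13.5 and 13.1 CPM (-0.03 ± 0.11, adjusted p = 0.934). CDKN1A, the cell cycle inhibitor that p53 induces, rose from 86.6, 86.3 and 84.1 to 103, 96.1 and 97.7 CPM (0.21 ± 0.05, adjusted p = 0.00169), but of 16 p53 targets 4 rose and 2 fell (median -0.05). GDF15, a stress cytokine, had the largest rise of them (0.62) and BTG2, an antiproliferative gene, the largest fall (-0.41). Cytosolic ribosomal protein genes (0 called of 45) and replication-dependent histones (0 of 10) held no called member in the fit of 57 libraries. RPL27 at 0.13 (adjusted p = 0.625) and H1-2 at -0.31 (adjusted p = 0.165) had the smallest p of these lists. RPL27 passed when only the Aconiti libraries (adjusted p = 0.0132) or only the 6 libraries (0.0223) were fitted, and H1-2 in the 6 libraries with a replicate block (0.0499). Of 18 mitosis genes BUB1 alone was called, at 0.17 (adjusted p = 0.0205), and it lost the call in 5 of 6 fits without a single library (adjusted p between 0.0505 and 0.0771).

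Most of the remaining lists split or held few called members. For comparison, 4.86% of all genes tested were called higher and 5.64% lower. Plasminogen activation genes, listed after the top genes were seen, gave 3 rises of 9, among them SERPINE2 (0.50) and the plasminogen receptor subunit ANXA2 (0.22), whose call was lost without replicate 1 of the medium dose (adjusted p = 0.0568). Of 8 YAP targets 3 rose, among them the matricellular CCN1 (0.51), and AJUBA fell (-0.30). Of 7 gluconeogenesis and FOXO targets IGFBP1 rose and 3 fell, among them PCK1 (-0.65), which commits carbon to glucose. Of 13 fatty acid oxidation and PPARA targets the lipid droplet coat PLIN2 rose (0.31) and 4 fell, among them CREB3L3 (-0.56). Of 8 PXR and CAR targets the efflux pumps ABCB1 (0.40) and ABCC2 (0.28) rose, ABCC2 losing its call in 5 of 6 fits without a single Aconiti library (adjusted p between 0.0671 and 0.120). Bile acid genes gave 2 falls of 8, NR1H4 and CYP27A1 (-0.23). Of 12 cytosolic heat shock genes 4 rose and HSPB1 fell (-0.33). HSPA1A (0.28) and HSPA1B (0.25), close copies that may share reads, both lost their call without replicate 1 of the medium dose (adjusted p = 0.112 and 0.0622). ATF4 targets gave 2 rises and 2 falls of 18, led by SESN2 (0.29) and PSPH (-0.26), and DNA replication genes 1 rise and 2 falls of 16, RRM2 (0.15), MCM2 (-0.16) and MCM3 (-0.15). These 3 lost their calls without the filter on low counts (adjusted p = 0.149, 0.112 and 0.162). SESN2 lost its call without replicate 1 of the medium dose (adjusted p = 0.106) or 3 of the low dose (0.0535). Of 10 WNT targets GLUL fell (-0.30) and of 11 interferon genes MX1 fell (-0.37), the latter losing its call without that filter (adjusted p = 0.0632). Of 9 hepatocyte markers 5 fell, of 3 stromal markers ACTA2 fell (-0.25), and none of 3 endothelial markers was called. Of 3 leukocyte markers LYZ rose (0.22) and CD14 fell (-0.62), each losing its call without some single libraries (adjusted p between 0.0501 and 0.102).

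Genes close to the known target of aconite alkaloids were measured as well. Of 13 voltage-gated sodium channel genes 6 could be tested, and SCN1A, a pore subunit, fell from 27.5, 29.9 and 29.6 to 17.7, 18.9 and 19.2 CPM (-0.64 ± 0.11, adjusted p = 3.8e-05). Its 2 groups were apart, and the other 5 did not pass. Of 10 sodium and calcium handling genes 4 rose and 0 fell, among them the sodium pump subunits ATP1B3 (0.24) and, outside the rule, ATP1B1 (0.14).

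**Figure D3:**
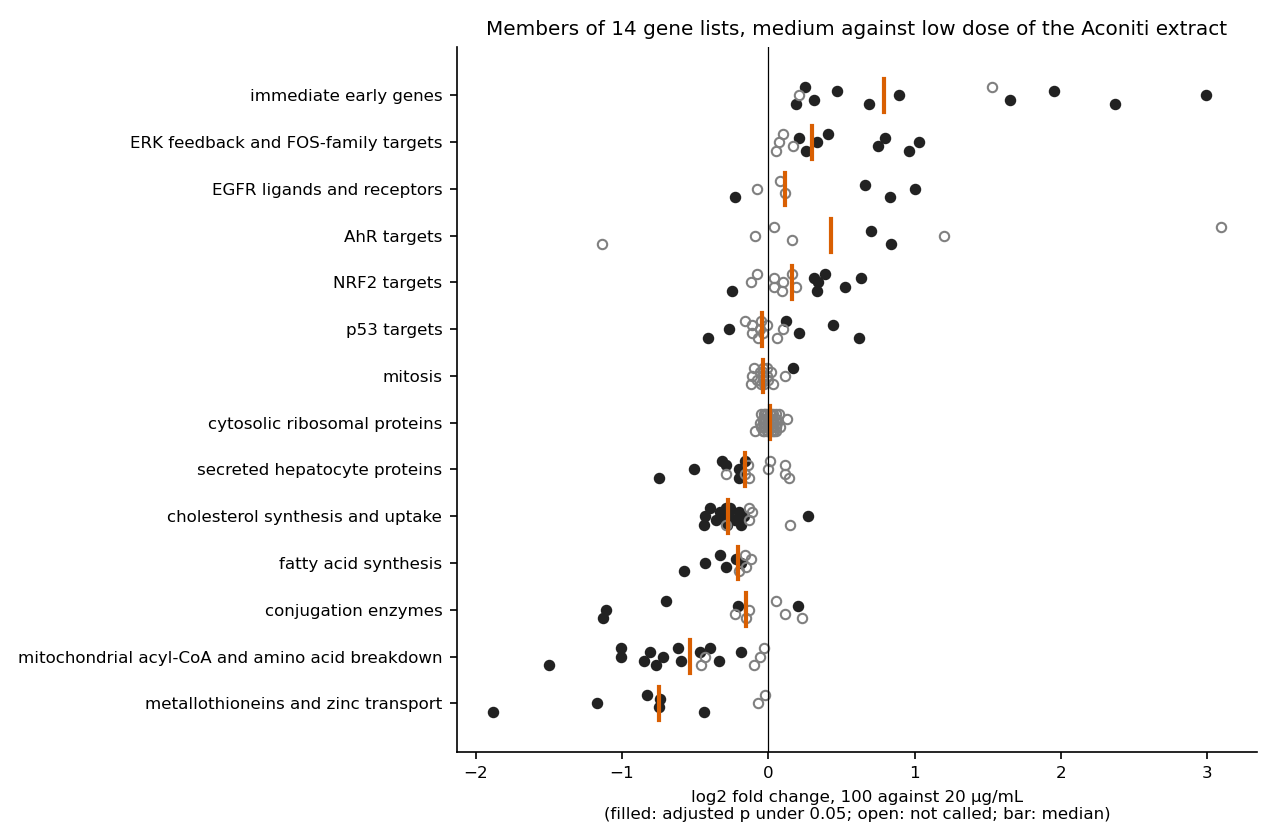
Log2 fold change of each measured member of 14 gene lists, 100 against 20 µg/mL (horizontal axis). Filled circles passed adjusted p under 0.05, open circles did not, and the orange bar is the median: 0.79 for immediate early genes and -0.74 for metallothioneins, against 0.01 for ribosomal proteins. The lists of ERK feedback genes, receptor ligands and mitochondrial breakdown were drawn up after the top genes were seen.

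At 500 µg/mL many of these changes were smaller than at 100 µg/mL. The comparisons of high with medium, high with low and medium with low dose share libraries, so their values are set side by side only. The largest rises and falls were chosen on the medium libraries, which favours values nearer the middle at the high dose. High against medium called 3364 genes (20.2%) and high against low 2435 (14.6%, with 6.77% higher and 7.83% lower). Of the 12 largest rises 11 were lower at the high than at the medium dose (10.3% of all genes tested were, a share over genes not chosen this way), with a median of -0.87. High against low, 6 of them were still higher and 1, IL11, was lower. EGR1 was back at 15.0, 13.1 and 14.4 CPM, 1.45 below the medium dose on the log2 scale (adjusted p = 3.0e-18), and its value against the low dose, 0.20, did not pass (adjusted p = 0.138). FOS stayed between, at 1.72, 1.73 and 1.07 CPM, and SPRY4 was at 54.6, 54.2 and 55.7, close to its low dose values. IGFBP1 kept its level, with 115, 109 and 104 CPM. Of the 12 largest falls 11 were higher at the high than at the medium dose (9.84% of all genes were), with a median over the 12 of 0.89. SULT2A1 at the high dose measured 183, 181 and 183 CPM, above every medium library and also above every low library by a small amount (0.06 against low, adjusted p = 0.537). GSTA1 at 64.4, 68.9 and 75.0 CPM overlapped its low dose range.

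Other groups moved on in the same direction, or first moved at the high dose. MT1F dropped further to 7.92, 9.23 and 8.94 CPM, and all 8 members of the metallothionein list were lower at the high than at the medium dose (median -1.59). CYP1A1 reached 97.4, 86.4 and 83.0 CPM, 1.97 above the medium dose on the log2 scale, and AKR1B10 reached 268, 251 and 255 CPM. In the cholesterol list 12 of 22 genes were lower again at the high dose and 0 higher. HMOX1, not called at the medium dose, measured 111, 129 and 118 CPM at the high dose (0.91 against medium, adjusted p = 9.0e-18). Of the p53 targets 13 of 16 were higher at the high than at the medium dose and 0 lower (median 0.51). Of 18 mitosis genes 17 were lower there (median -0.35), and of 16 endoplasmic reticulum chaperones and related genes 14 were lower (median -0.37), after 2 rises at the medium dose, DNAJB11 and HYOU1 (both 0.15). Each of those 2 rises lost its call without replicate 2 of the low dose (adjusted p = 0.0640 and 0.0547), and HYOU1 also without replicate 3 of the low dose or 1 or 2 of the medium dose (adjusted p between 0.0524 and 0.117).

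**Figure D4:**
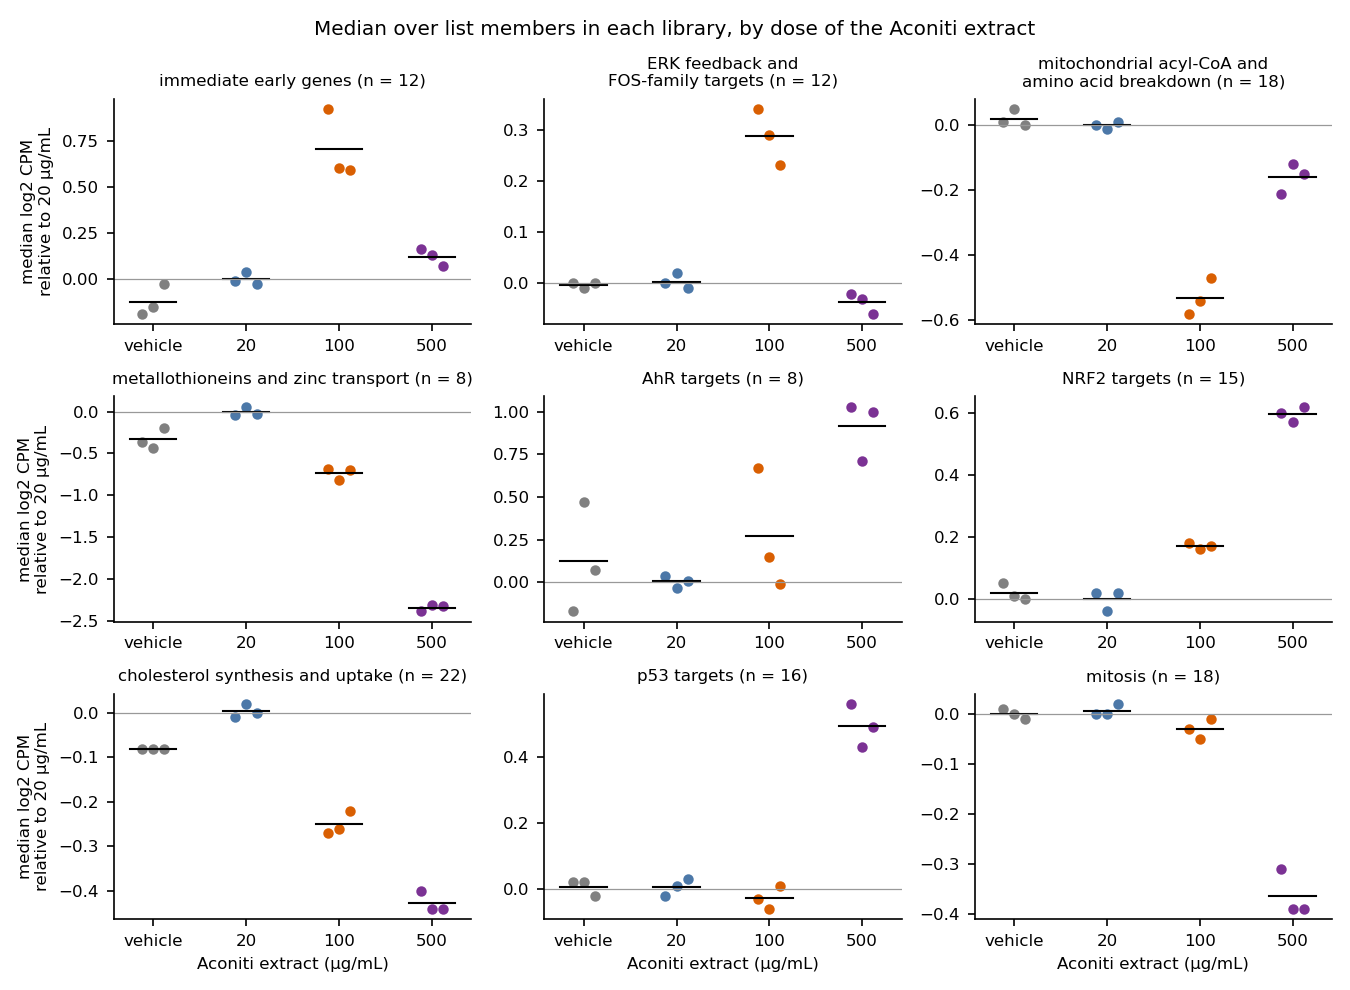
Median over the measured members of 9 gene lists in each library (points, bars are means of 3 libraries), as log2 CPM relative to the mean of the 20 µg/mL libraries. The immediate early list stands at 0.92, 0.60 and 0.59 at 100 µg/mL and at 0.16, 0.13 and 0.07 at 500 µg/mL, whereas the metallothionein list goes from -0.69, -0.82 and -0.70 to -2.39, -2.31 and -2.33, and the p53 and mitosis lists depart from 0 at 500 µg/mL. Vertical scales differ between panels.

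Against vehicle, in comparisons that share the vehicle libraries, the medium dose called 3487 genes (20.9%) and the low dose 1650 (9.90%). EGR1 stood at 1.76 against vehicle at the medium dose (adjusted p = 3.8e-20) and at 0.11 at the low dose (adjusted p = 0.517). FOSB stood at 2.04 at the medium dose (adjusted p = 1.1e-08) and at -0.95 at the low dose, which did not pass (adjusted p = 0.0572). Its rise against vehicle was thus smaller than its 2.99 against the low dose. SULT2A1 stood at -0.65 (adjusted p = 1.2e-12) and 0.06 (adjusted p = 0.580). MT1G was 0.67 above vehicle at the low dose (adjusted p = 4.4e-05) and had a value of -0.16 at the medium dose (adjusted p = 0.313). LSS was 0.23 above vehicle at the low dose (adjusted p = 2.2e-04) and at -0.21 at the medium dose (adjusted p = 1.8e-04). HSPB1 was 0.36 above vehicle at the low dose (adjusted p = 0.00669) and at 0.02 at the medium dose (adjusted p = 0.902). CDKN1A was at -0.15 at the low dose (adjusted p = 0.0314) and at 0.05 at the medium dose (adjusted p = 0.467).

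Other extracts were compared over their own 5-fold steps. Over the same 20 to 100 µg/mL, the Cimicifugae extract changed 9 genes (0.0540%) and the Citri extract 1 (0.00600%), with 529 and 615 genes at an unadjusted p under 0.05, and the Bupleuri extract, from 11.2 to 56 µg/mL, changed 530 (3.18%). In direct tests, the Aconiti step differed from the Cimicifugae step in 640 genes (3.84%), from the Citri step in 669 (4.01%) and from the Bupleuri step in 753 (4.52%). These counts moved with the libraries fitted. Without replicate 3 of the Bupleuri low dose, whose slope of level on transcript length was -0.303 against -0.00745 and 0.0132 in its group, they were 1214, 1219 and 847. The Bupleuri count was 241 with only the libraries compared, and 1914 or 1528 without replicate 1 or 2 of the Bupleuri low dose. It was 466 without replicate 1 of the Aconiti medium dose. For EGR1 the log2 fold change was -0.04 with Cimicifugae and -0.19 with Citri, and the difference from Aconiti was 1.69 (adjusted p = 4.5e-13) and 1.84 (adjusted p = 2.4e-14). For SULT2A1 those extracts gave 0.06 and 0.09, a difference of -0.76 (adjusted p = 2.2e-09) and -0.79 (adjusted p = 1.2e-09). Metallothioneins were among the 9 genes called with Cimicifugae: MT1F fell by 0.52 (adjusted p = 0.00813) and MT1M by 1.28 (adjusted p = 0.0143) on the log2 scale there, while MT1G had a value of -0.47 (adjusted p = 0.0634). The Aconiti minus Cimicifugae difference was -0.64 for MT1F (adjusted p = 0.00141), and it did not pass for MT1M (-0.60, adjusted p = 0.519) or MT1G (-0.36, adjusted p = 0.222). CYP1A1 rose more with Cimicifugae (1.51) and Citri (1.77) than with Aconiti, by 0.81 (adjusted p = 0.00255) and 1.07 (adjusted p = 1.3e-04) on the log2 scale. All 24 of the largest rises and falls with Aconiti differed from the Cimicifugae and Citri steps, and 23 differed from the Bupleuri step, LEAP2 being the exception (-0.52, adjusted p = 0.0560). These 24 were chosen for the size of their Aconiti change, which favours large differences. The Bupleuri comparison is within 1 set but at lower doses.

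**Figure D5:**
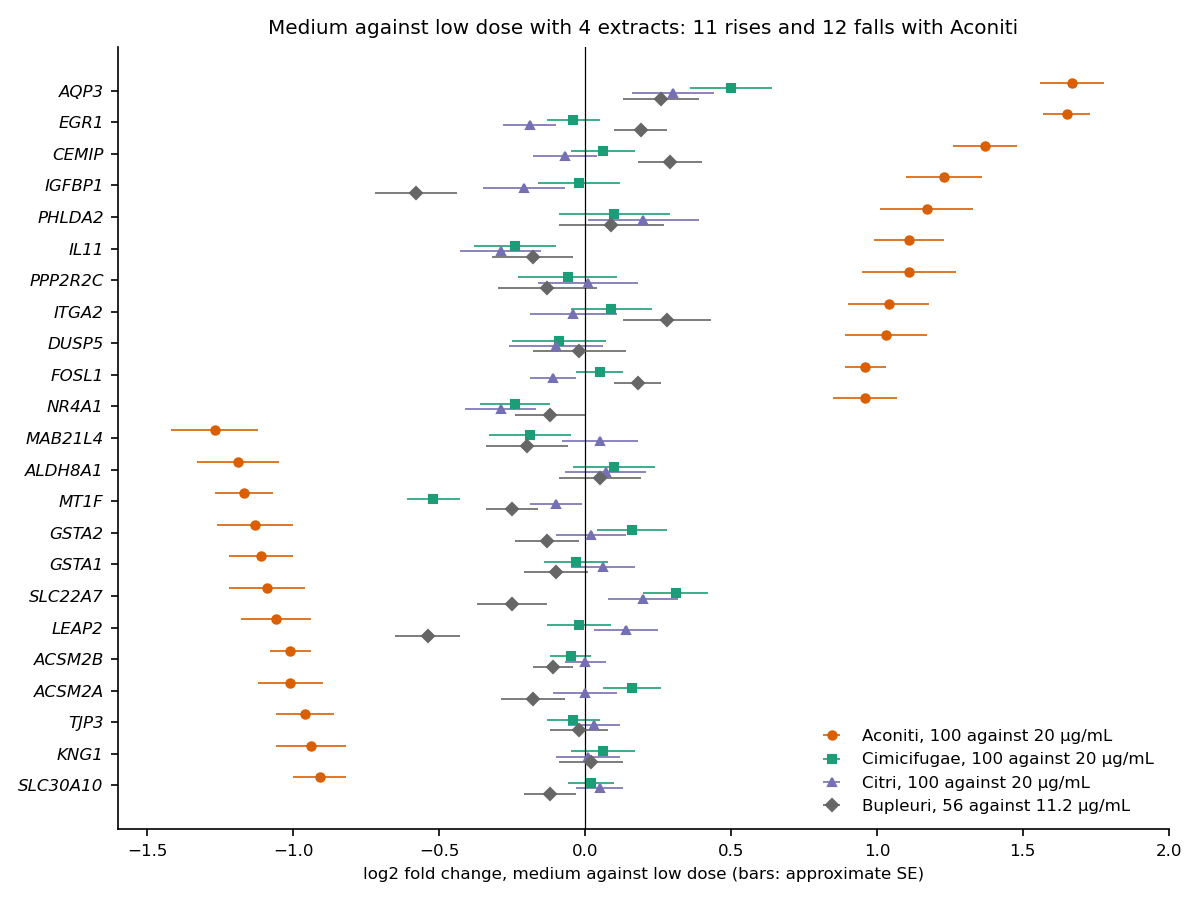
Log2 fold change, medium against low dose, of 11 of the 12 largest rises and the 12 largest falls with the Aconiti extract (orange), beside the same genes with Cimicifugae (green), Citri (purple) and Bupleuri (grey) extracts. Bars are approximate standard errors, with 3 libraries per dose and a spread shared over the 57 libraries fitted. The Aconiti values lie between 0.96 and 1.67 or between -1.27 and -0.91, and the other extracts lie between -0.58 and 0.50.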

How the data were processed

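RNA from HepG2 cells was sequenced with a directional mRNA library kit, per the labels' protocols. The authors deposited estimated counts per gene (RSEM expected counts, 60675 genes), made with RSEM 1.3.3, STAR 2.7.3a, Trim Galore 0.6.5, FastQC 0.11.9 and GRCh38, per the submitters' processing notes, while the annotation release and strand setting are not given in the sources used here. Of 267 columns 207 match no sample here and were not used. In the 60 columns used 8.75% of values were not whole, and all were rounded.

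Counts were tested with edgeR 4.0.16 (R 4.3.3, limma 3.58.1): TMM scaling, a filter on low counts by group, and a robust quasi-likelihood fit of 57 libraries in 22 groups, leaving 35 residual degrees of freedom. Groups with fewer than 2 libraries stayed out. The filter kept 16675 genes and removed 44000. P-values were Benjamini-Hochberg adjusted over all genes tested, and a call needs an adjusted p under 0.05. Standard errors were derived from each log2 fold change and its F statistic and are approximate. CPM are TMM-scaled. Precision depends on the total of 24250296 to 29362503 counts per library and on the spread shared by all libraries fitted. Identifiers were matched to symbols for 56558 genes, and positions come from GENCODE release 29. On data simulated from these libraries, the medium against low comparison (16910 genes) recovered 41.8% of genes changed by 0.25 on the log2 scale, 80.6% at 0.5 and 98.5% at 1, with 4 false calls among 151. Only 67, 67 and 66 genes were changed, all above a floor of counts, with the spread taken from the same fit. The real comparison called 1752, so these shares need not hold for it or for genes of few counts.

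The members, and the 36 gene lists, were chosen with earlier results of these data known, and 4 further lists were drawn up after the top genes were seen. Named genes were CYP1A1, HMOX1, DDIT3, CDKN1A and ALB, the 12 largest called rises and 12 largest called falls with a symbol, at least 5 CPM in either group and no overlap between groups, and up to 3 called members of each list, or the member of smallest p. Where a gene outside this rule is named, the text says so. Alternatives were DESeq2 1.42.0, RLE scaling, no filter, fewer libraries, a replicate block, offsets for GC content and transcript length (spline with 4 degrees of freedom), and leaving out each library in turn. Composition measures were compared by exact permutation (SciPy 1.17.1). Some genes that the rule names are not reported here.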

Additional observations from a re-analysis of the deposited data

Results flagged for a closer look

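The change from the low to the medium dose differed between extracts by a direct test of the difference (edgeR, adjusted p under 0.05) in 640 genes for Aconiti against Cimicifugae, 669 against Citri and 753 against Bupleuri. Over the other settings these counts ranged from 462 to 1451, from 486 to 1333 and from 241 to 1914.

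Among the genes with the largest Aconiti changes, the log2 difference of Aconiti minus Cimicifugae was positive for AQP3 (1.17), EGR1 (1.69), CEMIP (1.31), IGFBP1 (1.25), PHLDA2 (1.06), IL11 (1.35), PPP2R2C (1.16), ITGA2 (0.95), DUSP5 (1.12), FOSL1 (0.91) and NR4A1 (1.20). It was negative for MAB21L4 (-1.08), ALDH8A1 (-1.29), MT1F (-0.64), GSTA2 (-1.29), GSTA1 (-1.08), SLC22A7 (-1.39), LEAP2 (-1.04), ACSM2B (-0.96), ACSM2A (-1.16), TJP3 (-0.92), KNG1 (-0.99) and SLC30A10 (-0.93). All of these passed the test of the difference. Chosen for their size with Aconiti, these genes lean toward large differences. The 2 extracts belong to different sets of libraries, and the part of the set in these values was not tested.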

How the results depend on the processing

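Medium against low dose called 1752 genes. The count was 2721 without replicate 3 of the Bupleuri low dose, 2705 with GC and length offsets (55.1% higher, against 46.3%), 2896 with only the Aconiti libraries, 3174 with only the 6 libraries, and 3604 with those 6 and a replicate block. It ranged from 1143 (without replicate 1 of the medium dose) to 1458 when 1 Aconiti library was left out. RLE scaling (1745), no filter (1489) and DESeq2 (1758) stayed within 1.5 times. The difference from Cimicifugae (640) became 1214 without the Bupleuri library, 1204 with the offsets and 1451 with only the libraries compared, and ranged from 462 to 637 without single libraries. Its share of positive differences was 41.4%, and 52.2% with the offsets. The difference from Citri (669) became 1219, 1253 and 1333 in the same order, and ranged from 486 to 656. The difference from Bupleuri (753) was 1409 with the offsets and 241 with only the libraries compared. It ranged from 466 (without replicate 1 of the Aconiti medium dose) to 1914 (without replicate 1 of the Bupleuri low dose), with 1528 without replicate 2 of that dose and 847 without its replicate 3. The cause of these shifts was not tested.

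Over all genes, same-numbered Aconiti libraries did not deviate together (correlations -0.0175, -0.0527 and 0.029). The labels do not say what the number means, and correlations over all genes cannot show whether part of the genes were affected together. In the 6 libraries the block raised the count from 3174 to 3604. A replicate block in the full fit gave 1788 calls, 1732 of them shared with the fit without it. In the 6 libraries with the block MT1G lost its call (adjusted p = 0.0622).

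With members under 1 CPM left out, list medians moved to 0.58 for immediate early genes, -0.60 for mitochondrial breakdown, -0.27 for gluconeogenesis, -0.16 for hepatocyte transcription factors, 0.09 for histones and 0.02 for stromal markers. With RLE scaling, those of endoplasmic reticulum chaperones and circadian genes moved to 0.03 and -0.06. The ribosomal protein difference ranged from -0.0740 to 0.0338 percentage points without single libraries, turning positive without replicate 3 of the low dose. The 24 largest changes kept direction and call under all 15 settings, as did 77 of 104 called named genes. Both sets were chosen on calls in the same libraries, the 24 also on size and lack of overlap, which favours such stability. Neither DDIT3 nor HMOX1 was called. DDIT3 was 0.00 with offsets and between -0.09 and 0.01 without single libraries (0.00 without replicate 1 of the low dose, 0.01 without replicate 3 of the medium dose), and HMOX1 between -0.03 (without replicate 1 of the medium dose) and 0.07. Where a group was left with fewer libraries, its spread was taken from the shared fit. Changes near 0.25 on the log2 scale were often missed in simulated data (41.8% recovered).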

Other observations

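Of 13 circadian genes measured, 4 were lower at the medium than at the low dose, DBP (-0.52, edgeR adjusted p = 0.00419), BMAL1 (-0.40), TEF (-0.36) and, outside the rule for named genes, HLF (-0.17), and 1 was higher, CRY1 (0.26), also outside it. BMAL1 lost its call in 4 of 6 fits without a single Aconiti library (adjusted p between 0.0706 and 0.210) and with DESeq2 (0.0502).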
